A study of Xenopus laevis with 6 samples.

Results

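Kainate receptors are tetrameric ion channels that open when glutamate, the main excitatory transmitter of the vertebrate brain, binds to them. GluK1, GluK2 and GluK3, encoded by grik1, grik2 and grik3, can form channels on their own, whereas GluK4 and GluK5, encoded by grik4 and grik5, bind kainate with high affinity and reach the membrane only together with a subunit of the first kind. In mammals, where most of this is known, the receptors act on both sides of the synapse, carrying slow postsynaptic currents and tuning transmitter release. In tadpoles, axons from the retina release glutamate onto neurons of the optic tectum, which processes vision in the midbrain.

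Transcripts of these subunits were examined in 6 RNA-seq libraries from the optic tectum of stage 46 Xenopus laevis tadpoles. Of these, 3 libraries were of neural progenitor-enriched material from dark-exposed animals (NPC) and 3 of immature neuron-enriched material from animals exposed to visual stimulation (IN). The enrichment and the visual condition went together in every library, so their effects cannot be told apart, and the labels do not describe the method of enrichment. The sources name no genotype or treatment beyond these, and do not say whether libraries came from separate animals, so p-values measure the spread between these libraries, which may be technical.

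The genes were chosen by name alone: every gene line of the deposited annotation named grik1, grik2, grik3, grik4, grik5 or grid1, once the suffix for the long (.L) or short (.S) subgenome of this allotetraploid frog was removed. That gave 7 gene copies out of 45099 genes, namely grik1.L and both copies of grik2, grik3 and grik5. For grik4 the annotation held copies named grik4-like only, which fall outside the rule. It held no gene line named grid1, the delta receptor of the list, so grid1 was not analysed here. The set is therefore called kainate receptor subunits below. The 4 copies named grik4-like or grik5-like.1 were added for comparison after the data were seen and are kept apart from the 7.

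The libraries held 8422751 to 9914191 reads counted over mRNA features and 3796644 to 6033870 counted over coding sequence. The adjusted sizes behind every CPM were 82.9% (NPC library 2) to 112% (NPC library 1) of these totals over mRNA and 83.2% to 103% over coding sequence, so plain totals are given as an added alternative wherever they change whether groups overlap. Neuron markers fixed as a list (20 copies, all with reads) summed to 5233 to 10703 CPM (counts over library sizes adjusted by edgeR's TMM factors) in NPC and 4566 to 7244 CPM in IN, and progenitor and radial glia markers (20 copies, all with reads) to 1601 to 3398 and 2009 to 3606 CPM, so the groups overlapped on both and neither list set them apart in the direction of their labels. The log2 fold changes over mRNA (IN minus NPC, edgeR) did not follow the labels. They were below 0 for 15 of the 20 neuron copies, with a median of -0.35. For progenitor and radial glia markers, 13 of the 20 copies were above 0, with a median of 0.08. Over all tested genes 49.0% were above 0, with a median of -0.03, and the marker counts were not tested against this. Midbrain markers had reads for all 20 copies, while 10 of 19 hindbrain and spinal cord copies, all of them HOX genes, were at 0 in all libraries. The hindbrain sum was 53.4 to 179 CPM in NPC and 29.7 to 39.4 CPM in IN, and oligodendrocyte markers summed to 153 to 232 and 94.2 to 149 CPM, both without overlap between groups. On plain totals the hindbrain sums did not overlap either, but the oligodendrocyte sums did. Over coding sequence both sums overlapped. The hindbrain sum was then 10.04 to 311 CPM in NPC and 9.72 to 20.5 CPM in IN. The oligodendrocyte sum was 4.53 to 181 and 5.77 to 189 CPM. NPC library 2 had the highest hindbrain sum by both counts, and only 2 of the 19 hindbrain copies passed the filter for testing. Over mRNA, forebrain, cerebellum, retina, microglia, endothelial and erythroid sums overlapped. Over coding sequence the endothelial sums did not, at 2.49 to 15.4 CPM in NPC and 20.03 to 37.6 CPM in IN. The erythroid sums split by library number. Over mRNA they were 33.3 CPM in NPC library 3 and 26.7 CPM in IN library 3, with 437 to 935 CPM in the rest. By coding counts they were 49.8 and 41.9 CPM in these libraries, with 929 to 1644 CPM in the rest. The part of these cell types in the values below was not tested, and in bulk RNA fewer cells of a type and less RNA per cell cannot be told apart.

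The structure of the annotated gene copies fell into the same classes as the subunits' roles. How the annotation gave its names is not stated, so this match is a description and not independent support. grik2.L (Xelaev18027240m.g, chromosome 5L, 82038246 to 82360259, minus strand, genome build 9.1) and grik2.S (Xelaev18029328m.g, 5S, 63419790 to 63759013, minus strand) each had 16 coding segments with the same lengths in the same order, and 2742 coding bases. grik5.L (Xelaev18035958m.g, 7L, 101706141 to 101846005, minus strand) and grik5.S (Xelaev18037728m.g, 7S, 74825020 to 74948313, minus strand) likewise matched in all 19 segments and 2988 coding bases. grik1.L (Xelaev18011520m.g, 2L, 15530493 to 15816313, plus strand) had 17 segments and shared 13 of them, in order and by length, with grik2.L, and 12 with grik3.L. With grik5.L it shared 4. grik3.L (Xelaev18012525m.g, 2L, 83525627 to 83671821, plus strand) had 15 segments over 2661 coding bases, and grik3.S (Xelaev18015200m.g, 2S, 69992104 to 70085128, plus strand) was annotated with only 12 segments over 2019 bases, of which 10 matched grik3.L. The grik4-like copies shared 16 segments each with grik5.L and 4 with grik1.L.

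**Figure D1:**
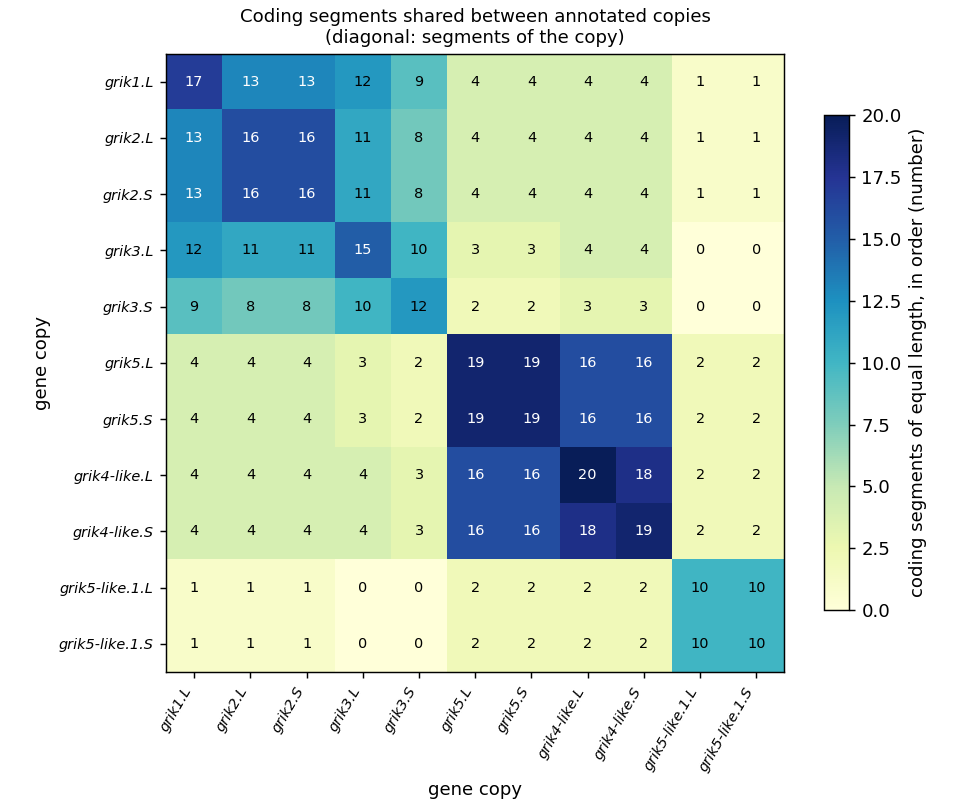
Number of coding segments that are equal in length and in the same order between each pair of annotated copies (both axes: gene copies; colour and printed value: number of segments; diagonal: all segments of a copy). grik1, grik2 and grik3 form a block with 8 to 16 shared segments between genes or copies, grik5 and grik4-like a block with 16 to 19, pairs across these blocks share 2 to 4, and grik5-like.1 copies share at most 2 with any other gene.

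The copies also lay in matching surroundings on the paired chromosomes. Both grik2 copies had hace1 and lin28b on one side and sim1 on the other, both grik3 copies had zc3h12a on one side and eva1b and stk40 on the other, and both grik5 copies had rabac1 on one side and znf574 on the other. No other annotated gene overlapped any of the 7, so overlapping or antisense annotated genes did not share their reads. Reads of near-identical L and S copies may still have been split or dropped, since the sources used here do not give the counting mode.

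All 7 copies span long stretches of genome, from 93.03 kb for grik3.S to 339.2 kb for grik2.S, against a median of 23578.5 bases over the 19158 genes tested. Introns as annotated made up 93.4% to 98.3% of each span. This bears on every value, because the mRNA features of the deposited annotation run from the first to the last base of a gene, introns included. grik3.S gives an example. The copy has no annotated UTR, so a read counted over its mRNA but not over its coding sequence lies in sequence annotated as intron. Its model lacks the segments of 258, 182, 54 and 174 bases that grik3.L has before its segment of 144 bases. Reads of coding sequence missing from the model cannot be told from intron reads. In NPC grik3.S had 241, 82 and 298 mRNA reads, of which 2, 5 and 58 were coding. In IN it had 457, 309 and 351 mRNA reads, of which 2, 203 and 78 were coding. In NPC library 1 the coding share was thus 0.83% (95% Wilson interval 0.228% to 2.97%) and in IN library 1 it was 0.438% (0.12% to 1.58%), so nearly all reads of this copy in those libraries were intronic by annotation.

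The other copies have annotated UTRs, and for them UTR and intron reads cannot be told apart. Over the 6 libraries together, coding sequence held 11.8% of the mRNA reads of grik2.S, 23.2% of grik1.L, 23.5% of grik2.L, 26.3% of grik5.S, 33.5% of grik5.L and 40.0% of grik3.L, against 20.02% for grik3.S and 52.9% at the median tested gene. The 2 counts are not strictly nested. Among genes without annotated UTRs and with over 1 coding segment, the 1864 with the shortest introns had coding reads at 115% to 128% of mRNA reads. Reads outside coding sequence are therefore a difference of 2 counts. Summed over the 7 copies, the coding share was 10.2%, 27.5% and 50.2% in NPC libraries 1, 2 and 3 and 11.9%, 27.4% and 31.6% in IN libraries 1, 2 and 3. It was lowest in the libraries numbered 1 of both groups. The same libraries were lowest over all genes (45.1% in NPC and 45.9% in IN, with 54.0% to 61.0% elsewhere), with a smaller gap. Over all genes without annotated UTRs and with 19314 or more bases of intron (1863 genes), the coding share was 45.4% and 49.5% in the libraries numbered 1 and 58.2% to 78.7% in the other 4.

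**Figure D2:**
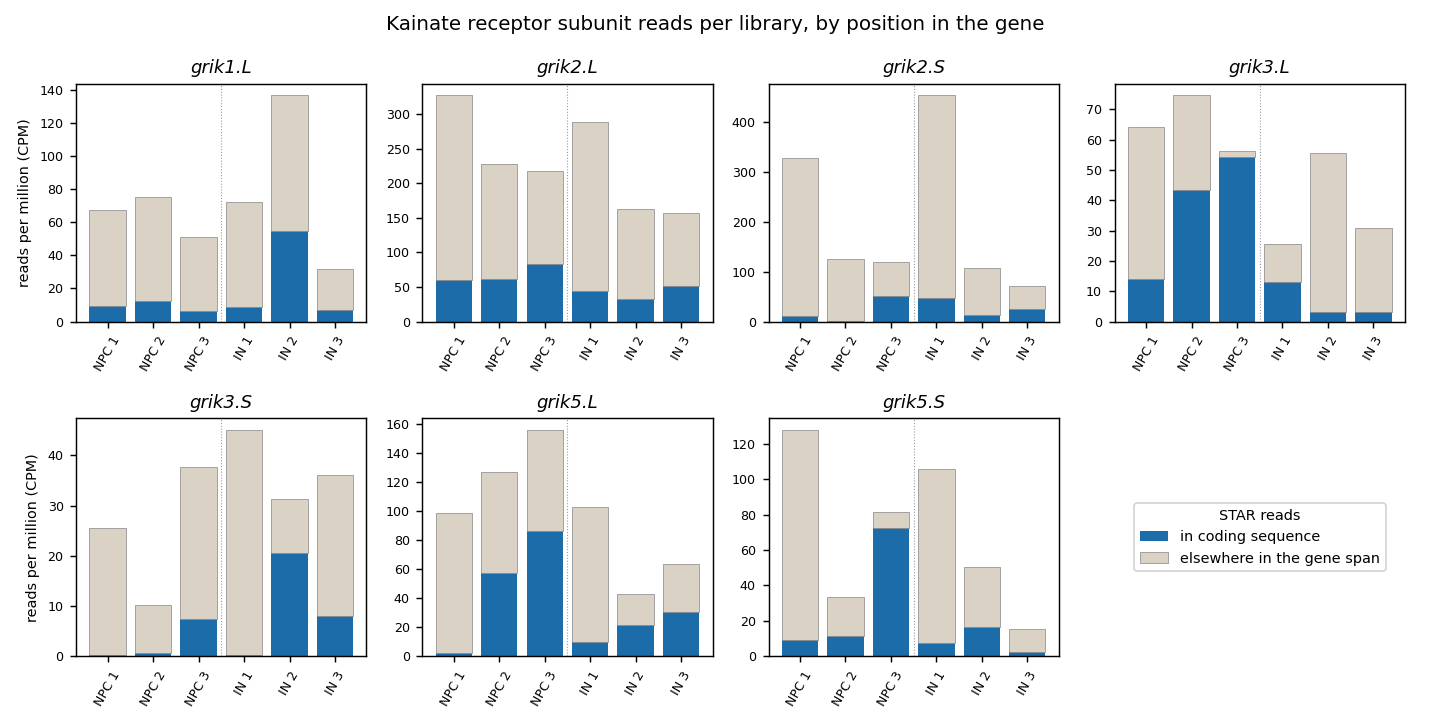
Reads in CPM on the adjusted mRNA library sizes (y axis, from 0, on a scale of its own in each panel) of each kainate receptor subunit copy in the 6 libraries (x axis), split into reads in coding sequence (blue) and reads elsewhere in the gene span (beige). The beige part is tallest in both libraries numbered 1 for grik2.L, grik2.S, grik5.L and grik5.S.

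Reads outside coding sequence were ordered by library number rather than by group in several copies. For grik2.S they came to 319, 126 and 68.6 CPM on the adjusted mRNA library sizes in NPC libraries 1, 2 and 3, and to 408, 95.9 and 45.7 in IN libraries 1, 2 and 3. For grik2.L they were 267, 167 and 134 in NPC against 244, 130 and 105 in IN, and for grik5.S 119, 22.4 and 8.73 against 98.6, 34.2 and 12.8. In these copies and in grik5.L, 4 of the 7, both libraries numbered 1 lay above the other 4. That was so for 14% of all tested genes and for 29.2% of the 2233 tested genes longer than 90 kb, a limit set after the data were seen so that all 7 copies pass it. In mRNA CPM it was so for 3 of the 7, against 9.22% of tested genes, a share not taken over long genes alone. In coding CPM it was so for 0 of the 7, against 7.97% of the genes tested over coding sequence. On plain totals the counts were 5 (grik3.S added, against 17.1% of tested genes and 37% of the long ones), 3 (12%) and 0 (8.82%). grik3.L differed most within a number: its reads outside coding sequence were 50.2, 31.5 and 2.02 CPM in NPC against 12.3, 52.4 and 27.6 in IN. Neuron marker sums moved with the number too, at 5233 and 4566 CPM in the libraries numbered 1 and 7121 to 10703 CPM in the other 4. Progenitor and radial glia marker sums did so as well, at 1601 and 2009 CPM against 3139 to 3606 CPM. Erythroid marker sums also moved with the number, but were lowest in the libraries numbered 3. The part of these lists in the values was not tested. What a number stands for (a day, a clutch or a sequencing run) is not stated in the labels.

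Among the subunits that form channels on their own, grik2.L had the highest mean level. On the scale of coding reads per kb of coding sequence and CPM-scaled, which allows levels of different genes to be compared, grik2.L was at 46.9 ± 6.55 in NPC and 29.9 ± 7.57 in IN (SD, n = 3 each), first in both groups. It was followed over all 6 libraries by grik5.L (19.8 ± 16.6, SD, n = 6), grik2.S (17.0 ± 14.7), grik3.L (14.9 ± 13.0), grik5.S (11.6 ± 13.2), grik1.L (11.4 ± 13.0) and grik3.S (5.40 ± 7.37). The ranges of each neighbouring pair in this order overlapped, grik2.L and grik5.L included, so no step of the order is resolved beyond the spread between libraries. grik2.L was also the steadiest, between 22.3 and 53.2 in all libraries, while grik2.S ran from 0.247 to 40.0 and grik3.S from 0.228 to 19.3.

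**Figure D3:**
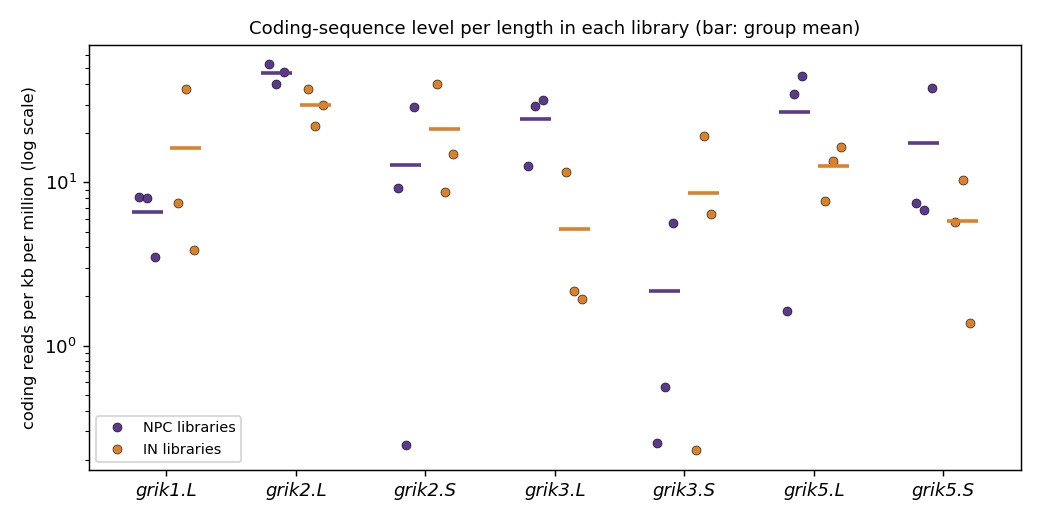
CPM-scaled coding reads per kb (y axis, log scale) of the 7 copies in each NPC library (purple) and IN library (orange), with the group mean as a bar. grik2.L lies in a narrow range of 22.3 to 53.2, and the 3 NPC points lie above the 3 IN points for grik2.L and grik3.L; on plain totals this holds for grik3.L only.

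No copy passed the test of IN against NPC by edgeR's quasi-likelihood test, fitted over all genes with Benjamini-Hochberg adjustment. Of 19158 genes tested over mRNA, 0 passed at 0.05 (0%). All 7 copies were tested, and 658 genes (3.43%), none of the 7, had an unadjusted p under 0.05. DESeq2 called 88 genes (0.459%) and 0 of the 7. Over STAR coding counts 0 of 15422 genes passed (0%) and 541 (3.51%) had an unadjusted p under 0.05, again none of the 7. The log2 fold changes (IN minus NPC) were above 0 for 3 copies and below 0 for 4, with a median of -0.35. The median was -0.03 over all genes tested and -0.35 over the neuron marker copies. The standard errors of the 7 ran from 0.53 to 1.05. Over coding counts the same 3 copies were above 0 and the same 4 below, with a median of -0.65 beside 0.01 over all genes and standard errors of 0.82 to 2.13.

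grik2.L had the most reads of the 7 copies over all libraries together, by either count. It had 3094, 1823 and 1724 mRNA reads in NPC against 2916, 1604 and 1519 in IN. The library numbered 1 was highest in each group, and the groups overlapped. Its level was 258 ± 60.7 CPM in NPC and 202 ± 74.2 CPM in IN, a log2 fold change of -0.35 (SE 0.53, 95% interval -1.44 to 0.74, edgeR). Coding sequence held 572, 487 and 661 reads in the NPC libraries against 446, 318 and 499 in the IN libraries, or 129 ± 18.0 and 82.0 ± 20.8 CPM. In CPM the groups did not overlap (exact permutation p 0.1, 2-sided, the smallest that 3 against 3 can give). On plain totals they did, with NPC library 2 at 91.6 and IN library 1 at 103.6 (exact permutation p 0.2). The coding log2 fold change was -0.65 (SE 0.82, 95% interval -2.34 to 1.04, edgeR).

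grik2.S had 3108, 1013 and 945 mRNA reads in NPC against 4610, 1070 and 693 in IN. Its mRNA level was 192 ± 119 CPM in NPC and 212 ± 212 CPM in IN, where its mean was above that of grik2.L. The libraries numbered 1 were highest in both groups, and the other 4 held 693 to 1070 reads each. Coding sequence held 99, 3 and 403 of them in the NPC libraries against 476, 125 and 249 in the IN libraries, a different order of libraries. In NPC library 2 the coding share was 0.296% (95% Wilson interval 0.101% to 0.867%), with 3 of 1013 reads. The log2 fold change was 0.14 (SE 0.67, edgeR) over mRNA, where it turned to -1.09 without IN replicate 1, and 0.73 (SE 1.39, edgeR) over coding sequence.

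grik1.L, the only annotated copy of grik1, had 638, 601 and 402 mRNA reads in NPC against 731, 1349 and 306 in IN. IN library 2 stood above the rest and held 542 of the 933 coding reads, while the other 5 libraries held 49 to 98 each. The groups overlapped by both counts. The log2 fold change was 0.31 (SE 0.76, 95% interval -1.28 to 1.90, edgeR) over mRNA and turned to -0.31 without IN replicate 2.

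grik3.L showed the lowest fold change of the 7 over coding sequence. Coding sequence held 132, 346 and 430 reads in the NPC libraries against 133, 30 and 31 in the IN libraries, so that IN libraries 2 and 3 were low and library 1 was at a like count in both groups. In coding CPM the groups did not overlap, at 65.5 ± 27.8 in NPC and 13.8 ± 14.5 in IN, although the nearest libraries, at 33.7 and 30.6 CPM, were close. They did not overlap on plain totals either, at 34.8 and 30.9. The coding log2 fold change was -2.24 (SE 1.40, 95% interval -5.15 to 0.67, unadjusted p 0.124, adjusted p 1.00, edgeR). Over the mRNA it had 606, 598 and 446 reads in NPC libraries against 258, 547 and 299 in IN libraries, or 65.1 ± 9.20 and 37.3 ± 16.02 CPM. These did not overlap in CPM, at 56.4 against 55.5 for the nearest libraries, but overlapped on plain totals, at 52.6 against 56.1. The log2 fold change was -0.81 (SE 0.84, edgeR). Reads outside coding sequence gave a fold change of the other sign, 0.37 (SE 1.14, edgeR), a setting added after the data were seen.

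grik3.S, whose reads are given above, was higher in the mean in IN, at 37.5 ± 6.997 against 24.5 ± 13.8 CPM over mRNA, with overlapping groups. The log2 fold change was 0.62 (SE 1.05, edgeR) over mRNA and 1.99 (SE 2.13, 95% interval -2.43 to 6.42, edgeR) over coding sequence, where IN library 2 held 203 of 348 reads. Of the 7 copies, 1 (grik3.L) did not overlap between groups in mRNA CPM, beside 8.76% of all tested genes, and 2 (grik2.L and grik3.L) did not in coding CPM, beside 9.63%. All were higher in NPC, where the background in that direction was 4.06% over mRNA and 4.04% over coding sequence, with 4.7% and 5.59% in the direction of IN, where 0 of the 7 lay. On plain totals the counts fell to 0 over mRNA, beside 8.86%, and 1 (grik3.L) over coding sequence, beside 9.59%. With so few copies these counts say nothing particular about the family.

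The high-affinity subunit grik5 had fold changes below 0 in both copies. grik5.L had 931, 1014 and 1233 mRNA reads in NPC against 1044, 426 and 620 in IN. IN library 1 lay among the NPC libraries, and IN libraries 2 and 3 lay below them. The level was 127 ± 28.7 CPM in NPC and 70.1 ± 30.4 CPM in IN, with a log2 fold change of -0.86 (SE 0.66, 95% interval -2.24 to 0.52, unadjusted p 0.209, adjusted p 1.00, edgeR), the lowest of the 7 over mRNA. Coding sequence held 19, 458 and 682 of these in the NPC libraries against 100, 210 and 297 in the IN libraries, so that the libraries numbered 1 were the lowest of each group here, while they were the highest by reads outside coding sequence.

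grik5.S had 1208, 269 and 642 mRNA reads in NPC against 1072, 498 and 149 in IN, again highest in both libraries numbered 1. Of its 1010 coding reads 573 fell in NPC library 3, with 87 and 90 in the other NPC libraries and 74, 161 and 25 in IN. The coding share in NPC library 3 was 89.3% (95% Wilson interval 86.6% to 91.4%), against 7.20% (5.88% to 8.80%) in NPC library 1. The log2 fold change was -0.50 (SE 0.84, edgeR) over mRNA, -1.58 (SE 1.47, edgeR) over coding sequence and 0.03 (SE 0.98, edgeR) outside it.

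**Figure D4:**
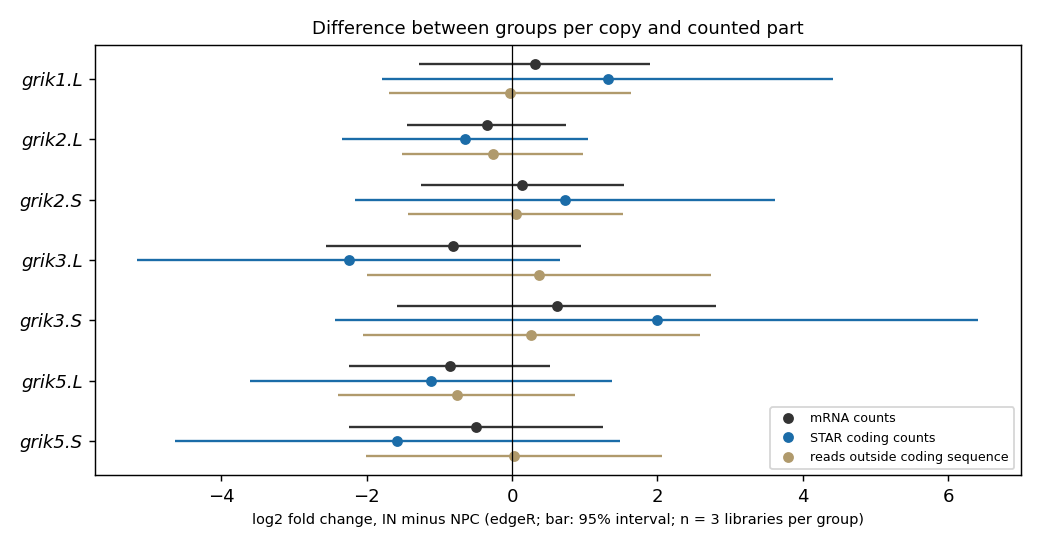
Log2 fold change (x axis, IN minus NPC, edgeR, n = 3 libraries per group) of each copy (y axis) over mRNA (black), STAR coding sequence (blue) and reads outside coding sequence (tan), with 95% intervals. Every interval holds 0, and the coding intervals are the widest in each copy, up to -2.43 to 6.42 for grik3.S.

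With the L and S reads of each gene summed before the fit, which avoids the question of how reads were split between copies, 0 of 4 receptor genes passed (0% of 13573 genes). The log2 fold changes were 0.32 (SE 0.75) for grik1, -0.11 (SE 0.50) for grik2, -0.25 (SE 0.67) for grik3 and -0.70 (SE 0.56, 95% interval -1.85 to 0.46) for grik5, all by edgeR over mRNA. Summed grik3 was at 89.7, 85.0 and 94.1 CPM in NPC and 70.6, 86.8 and 66.9 CPM in IN. The groups overlapped. All 7 copies together came to 812 ± 199 CPM in NPC and 696 ± 357 CPM in IN, a ratio of 0.858, and were highest in the libraries numbered 1 (1041 CPM in NPC and 1095 CPM in IN, with 405 to 720 in the other 4). Over coding sequence they summed to 385 ± 159 and 272 ± 57.6 CPM.

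The balance of L and S copies varied between libraries by more than the Wilson intervals, which take each read as independent. The reads carry no molecular identifiers, so repeated reads of the same molecule are not covered by these intervals. The group difference in balance depended on the counted part. For grik3 the L copy held 98.5%, 98.6% and 88.1% of coding reads in NPC against 98.5%, 12.9% and 28.4% in IN. By coding reads IN library 1 thus matched the NPC libraries, with 2 reads on the S copy. The S copy took most coding reads in IN libraries 2 and 3 (95% Wilson intervals of the L share 9.17% to 17.8% and 20.8% to 37.5%). The mean L share was 95.1% ± 6.02 in NPC and 46.6% ± 45.6 in IN (SD, n = 3 each; exact permutation p 0.3, 2-sided). Over mRNA reads it was 73.1% ± 14.1 and 48.7% ± 14.1 (exact permutation p 0.2). By that count IN library 1 was the lowest of all, at 36.1%. IN libraries 2 and 3 were at 63.9% and 46.0%, and NPC libraries at 59.9% to 87.9%. The shares are not adjusted for length. The grik3 L copy is annotated longer than the S copy, with 2661 coding bases against 2019 and a span of 146.2 kb against 93.03 kb. An even share of grik3 reads therefore does not mark an equal level.

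For grik2 the L share of coding reads was 82.3% ± 18.8 for NPC against 62.3% ± 12.3 for IN (p 0.3 by the exact permutation test), and over mRNA reads it was 59.6% ± 8.40 and 55.8% ± 15.4 (exact permutation p 0.7). The L copy held 99.4% of grik2 coding reads in NPC library 2 (95% Wilson interval 98.2% to 99.8%) and 48.4% in IN library 1 (45.2% to 51.6%). For grik5 the direction differed between the counted parts, with 51.9% ± 32.9 for NPC against 68.8% ± 20.3 for IN over coding sequence (exact permutation p 0.4) and 62.8% ± 17.9 and 58.7% ± 19.1 over mRNA (exact permutation p 1). None of the 3 pairs reached 0.1, the smallest exact p that 3 against 3 allows, by either count.

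**Figure D5:**
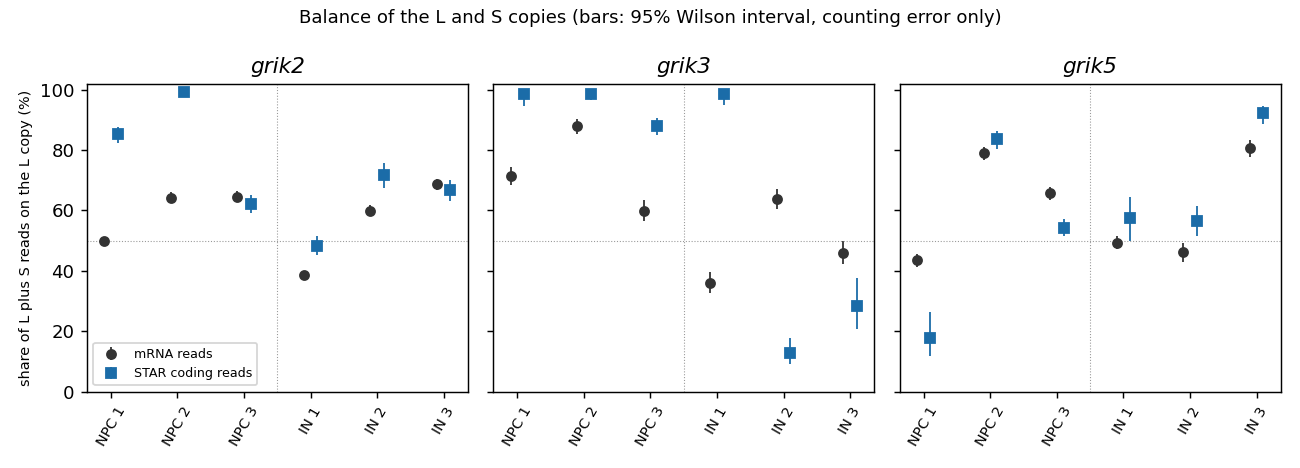
Share of L plus S reads that fell on the L copy (y axis, percent) in each library (x axis) for grik2, grik3 and grik5, over mRNA (black circles) and STAR coding sequence (blue squares); bars are 95% Wilson intervals and cover counting error only. The grik3 coding share is 88.1% or more in 4 libraries and 28.4% or less in IN libraries 2 and 3.

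The 4 copies outside the rule gave a point of comparison. grik4-like.L (Xelaev18035372m.g, 7L, 71561685 to 71907110, minus strand, 345.4 kb) had 1624, 428 and 330 mRNA reads in NPC against 1764, 540 and 737 in IN, and grik4-like.S (Xelaev18037421m.g, 7S, 53909372 to 54094857, plus strand, 185.5 kb) 670, 427 and 131 against 967, 385 and 406. Both were highest in the libraries numbered 1, as grik2 was, and coding sequence held 14.3% and 13.4% of their reads. Their log2 fold changes were 0.19 (SE 0.74) and 0.32 (SE 0.87) by edgeR over mRNA. Unlike the 7, grik4-like.L is overlapped by 3 annotated genes, so its mRNA reads may be shared with or lost to them.

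The grik5-like.1 copies are short, with 1440 coding bases in 10 segments, at most 2 of which match a segment of grik5.L or grik5.S. RefSeq gives grik5, kbp and u1 as other names of grik5-like.1.L, and grik5 and xenu1a-a as other names of grik5-like.1.S. Kainate-binding proteins are known from frogs and birds as short relatives of kainate receptor subunits that lack most of the extracellular amino-terminal domain. grik5-like.1.S (Xelaev18037487m.g, 7S, 59407019 to 59435266, minus strand, 28.25 kb), the copy with the most coding reads of all 11, held 464, 1268 and 1001 coding reads across NPC libraries against 558, 154 and 1136 across IN libraries, and coding sequence held 83.7% of its mRNA reads. grik5-like.1.L (Xelaev18035598m.g, 7L, 83795712 to 83825197, minus strand, 29.49 kb) held 69, 199 and 250 coding reads across NPC libraries against 617, 762 and 747 across IN libraries, with no overlap, a ratio of means of 3.68 in CPM. Of all genes tested over coding sequence, 9.63% did not overlap and 5.59% were higher in IN, and this copy was added after the data were seen. The coding log2 fold change of grik5-like.1.L was 1.88 (SE 0.93, 95% interval -0.06 to 3.82, unadjusted p 0.0566, adjusted p 1.00, edgeR), and it was 0.06 (SE 0.61, edgeR) over mRNA and -0.997 (SE 0.78, edgeR) outside coding sequence. The L share of this pair's coding reads was 12.9%, 13.6% and 19.98% in NPC against 52.5%, 83.2% and 39.7% in IN, without overlap (2-sided exact permutation p 0.1, the smallest possible). These shares rest on the same coding reads, and no background over all copy pairs was taken. Over mRNA reads the L share was 46.5% ± 13.6 and 64.5% ± 18.4 with overlap (exact permutation p 0.2).

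Genes that work with these receptors were taken as lists. Of the auxiliary subunits and trafficking partners of kainate receptors, 19 copies of 10 genes were tested, 0 passed in either direction by edgeR (2 at an unadjusted p under 0.05, where 3.43% of all tested genes were, and 0 by DESeq2), and the median log2 fold change was 0.20 over mRNA and -0.20 over coding sequence. The copies of lowest p were cul3.S, the scaffold of a ubiquitin ligase, with 486, 857 and 2064 mRNA reads in NPC against 193, 345 and 543 in IN, and snx27.S, an endosomal sorting protein, with 594, 1685 and 943 against 288, 496 and 359. In CPM 4 of the 19 copies did not overlap between groups, beside 8.76% of all tested genes. They were grip1.S, grip2.S and snx27.S, higher in NPC, and kif17.L, higher in IN; the grip and kif17 copies are named after their values were seen. On plain totals cul3.S joined them. The other lists, given below, had 0 of 14 (delta receptor partners), 0 of 6 (editing enzymes) and 0 of 12 (glutamate release and uptake) on either scale. For snx27.S the fit gave no call (log2 fold change -1.76, SE 0.74, unadjusted p 0.0262, adjusted p 1.00, edgeR). Its unadjusted coding p was 0.113, and that of cul3.S was 0.0782 (edgeR). By coding reads, grip1.S alone of the 4 stayed apart, at 110, 152 and 187 in NPC against 4, 23 and 85 in IN. grip2.S tied at 25 reads (592, 58 and 25 against 25, 21 and 9). The groups overlapped for kif17.L (3, 0 and 0 against 45, 0 and 142) and snx27.S (317, 810 and 144 against 162, 158 and 67). Over mRNA, kif17.L had only 22, 0 and 0 reads in NPC. The most abundant were cask.L and cask.S, copies of a membrane scaffold kinase, at 178 ± 73.1 and 110 ± 38.8 CPM in NPC and 142 ± 64.8 and 131 ± 3.84 CPM in IN.

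The neto genes encode the auxiliary subunits that slow kainate receptor kinetics in mammals, and were picked out after their values were seen. neto2.L had 1204, 319 and 298 mRNA reads in NPC against 1897, 1012 and 1059 in IN, highest in both libraries numbered 1, a log2 fold change of 0.96 (SE 0.70, edgeR). Its coding reads, 633, 163 and 122 against 282, 140 and 615, gave -0.20. neto2.S had 431, 859 and 28 in NPC against 185, 104 and 121 in IN, and its coding reads were 255, 857 and 27 against 13, 19 and 69. The coding log2 fold change of neto2.S was -3.86 (unadjusted p 0.0166, adjusted p 1.00, edgeR). neto1.L had 194, 17 and 55 mRNA reads in NPC against 265, 265 and 88 in IN, and neto1.S had 307, 34 and 9 against 228, 20 and 203.

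Of the delta receptor partners, 14 copies were tested and 0 passed by edgeR in either direction (0 at an unadjusted p under 0.05, 0 by DESeq2), with a median log2 fold change of -0.04. nrxn3.L, a presynaptic neurexin, had the highest mean of the list, with 243 ± 40.7 CPM for NPC against 283 ± 36.0 for IN. By lowest p, ptpn4.L, a tyrosine phosphatase, had 468, 445 and 387 mRNA reads in NPC against 2506, 241 and 695 in IN, and cbln2.L, a secreted cerebellin, had 322, 632 and 206 against 183, 279 and 8.

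Enzymes that edit glutamate receptor transcripts, which in mammals recode a pore residue of GluK1 and GluK2, gave 6 tested copies and 0 calls by edgeR (0 at an unadjusted p under 0.05, 0 by DESeq2), with a median log2 fold change of 0.19. adarb1.L, which encodes the main enzyme of this editing, had 379, 364 and 502 mRNA reads in NPC against 1355, 474 and 455 in IN. adar.L, the most abundant, was at 124 ± 57.5 and 142 ± 80.8 CPM, and adarb2.L, a relative without known editing activity, had 1122, 67 and 162 reads against 278, 65 and 42. Of the genes of glutamate release and uptake, 12 copies were tested and 0 passed by edgeR (1 at an unadjusted p under 0.05, 0 by DESeq2), with a median log2 fold change of 0.08. slc17a7.S, a vesicular glutamate transporter, had 256, 1103 and 2498 mRNA reads in NPC against 267, 462 and 492 in IN. The glial uptake transporter slc1a3.S, second in abundance to slc1a3.L in this list, was at 177 ± 52.5 and 254 ± 130 CPM.

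Of all genes with a symbol that were tested, the 3 whose log2 CPM over the 6 libraries was most like that of grik2.L were mrto4.L, agpat4.L and znf385b.L, with Pearson's r of 0.993, 0.989 and 0.989 and Spearman's rho of 0.943 each. Without the 2 libraries farthest from the median of grik2.L (NPC library 1 and IN library 3), r was 0.983, 0.990 and 0.981. IN library 1 stayed in, and the genes were picked for their r over the same libraries. The smaller set therefore cannot show whether the likeness goes beyond the library number. The 3 genes have the highest r of a search over all tested genes, so no p is given. All 3 were highest in the libraries numbered 1, with 125 and 85 mRNA reads there for mrto4.L and 10 to 32 in the other 4.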

How the data were processed

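The authors deposited read counts per gene (unit: counts) for 6 libraries of total RNA, sequenced as single-end reads of 100 bases per the labels. The tables hold STAR counts over mRNA features, STAR counts over coding sequence and TopHat2 counts over coding sequence. The submitters' processing notes name STAR, TopHat2, HTSeq, DESeq2, FastQC and Trimmomatic, without role, order or version, and strand handling and the treatment of reads with several matches are not stated in the sources at hand. The deposited annotation is of genome build 9.1, per the file headers. Columns D1 to D3 were read as NPC and L1 to L3 as IN, and a library's number as its replicate number. There were 0 unused columns of per-sample values.

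From these counts, reads outside coding sequence were taken as mRNA minus coding reads, with negative differences set to 0. The main test was edgeR's quasi-likelihood test (edgeR 4.0.16, limma 3.58.1, R 4.3.3) with TMM scaling, filterByExpr, no covariate and Benjamini-Hochberg adjustment over all genes tested, at 0.05. Library-level values were CPM on TMM-adjusted library sizes of the mRNA or the coding table, compared by exact permutation tests in Python 3.11.15. Shares have 95% Wilson intervals, which cover counting error only, since the reads carry no molecular identifiers. The fitting script was tested on simulated data. Its condition to pass applied only to a simulation with less spread between libraries than these data, whose common coefficient of variation was 111%. How well changes are recovered at that spread is not given here. Alternatives were other scalings, filters and tools (DESeq2 1.42.0, limma-voom), the other counted parts, a replicate block and each library left out. Another 5 were added after the data were seen, plain table totals in place of TMM-adjusted sizes among them.

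The members and lists were chosen with earlier results of these data known. Genes named are every copy of the listed symbols, the 2 copies of lowest p and the 2 of highest mean CPM in each pathway list, and the 3 genes most correlated with the copy of most reads, over log2 CPM with a prior count of 2. Other genes are said to be chosen after their values were seen. A gene that this rule selects is not reported here.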

Additional observations from a re-analysis of the deposited data

How the results depend on the processing

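No kainate receptor copy, summed gene or list member had an adjusted p under 0.05 under any of the 18 alternatives for calls, edgeR, DESeq2 and limma-voom fits included. Over all genes, where edgeR called 0, the count was 16 without a filter and 88 by DESeq2. It was 0 to 2 with 1 library left out, with 1 call without NPC replicate 1 and 2 without NPC replicate 3. The replicate block gave 0 genes and 0 copies. With it the standard errors over mRNA were lower for grik2.L (0.43) and grik2.S (0.46) and higher for grik3.L (0.89) and grik3.S (1.17). The log2 fold change was then -0.38 for grik2.L and -0.17 for grik2.S. With copies summed, the block gave -0.25 for grik2 (SE 0.33, against 0.50 without it). For summed grik5 it gave -0.81 (SE 0.50, unadjusted p 0.106 against 0.224 without it, edgeR). The smallest adjusted p over all summed genes was 0.0668 with the block and 0.9997 without it (edgeR). The numbers were not taken as pairs, because the deviations of same-numbered libraries correlated at 0.115, 0.0467 and 0.0813 and not all passed 0.1, although 6 of 6 libraries correlated best with their own number. Libraries of different number and group correlated below 0, at -0.0744 to -0.00773. Falling short of the 0.1 limit does not show that the libraries were unpaired.

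The IN to NPC ratio of the summed CPM of the 7 copies was 0.858. It was 0.706 over coding sequence and 0.571 over coding sequence with both libraries numbered 1 left out, an alternative added after the data were seen, and 0.612 to 1.04 with 1 library left out. On plain table totals, also added, it was 0.907, and the copies whose groups do not overlap fell from 1 to 0 over mRNA and from 2 to 1 over coding sequence. The log2 fold change kept its sign in all 18 alternatives for grik2.L (-0.89 to -0.15), grik3.S (0.25 to 2.08) and grik5.L (-1.41 to -0.61). It took the other sign in 7 for grik2.S (-1.09 to 0.77), 2 for grik1.L (-0.31 to 1.86), 1 for grik3.L (-3.89 to 0.37) and 1 for grik5.S (-1.92 to 0.03). The cause was not tested. With standard errors of 0.53 to 1.05 over mRNA, the 95% intervals of the 7 copies left room for differences in either direction. For grik3.L the value of -3.89 came from coding sequence with both libraries numbered 1 left out, a setting added after the data were seen. There the 95% interval was -7.71 to -0.07 (unadjusted p 0.0464, edgeR), and the adjusted p was over 0.05.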
